A study of Homo sapiens with 9 samples.

Results

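The matrix metalloproteinases (MMP), the membrane-anchored ADAM proteases, the secreted ADAMTS proteases, the protease-like ADAMTSL proteins without a catalytic domain and the tissue inhibitors of metalloproteinases (TIMP) were followed in RNA-seq of pseudopodia, cell bodies and whole cells of hTERT-MSC. Members were the genes whose symbol is one of these 5 stems followed by digits and at most 1 letter. That gave 68 of the 37196 genes with a count in at least 1 library, namely 21 MMP, 19 ADAM, 19 ADAMTS, 5 ADAMTSL and 4 TIMP genes. Of the 68, 54 passed the expression filter of the test and 14 did not, with at most 15 counts and 0.503 TPM (a length-normalised level per library) in any library.

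hTERT-MSC is an adipose-derived human mesenchymal stem cell line immortalised with telomerase. Serum-starved cells sat for 2 h on membranes with 3 µm pores and then received PDGF-BB, a growth factor for mesenchymal cells, at 50 ng/mL in the well beneath for 1 h. The 3 pseudopodia libraries came from protrusions scraped off the lower face, and the 3 cell body libraries from what was then scraped off the upper face. The 3 whole cell libraries have the same treatment label, so no group was free of PDGF-BB, and how they were collected is not described separately in the labels.

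Most of these proteases are made as inactive precursors, and many are secreted or held at the cell surface. There they cut matrix proteins, release growth factors and receptors from membranes, or process procollagen. TIMPs bind the active sites of MMPs and of some ADAM and ADAMTS enzymes, and TIMP2 together with MMP14 also takes part in the activation of the MMP2 precursor. Their mRNAs are generally translated at the endoplasmic reticulum, as for other secreted and membrane proteins.

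Promoter sequences are shown for 4 members. TIMP1 and MMP14 have the highest levels of the inhibitor and membrane-type groups. ADAMTS12 and MMP10 hold TGANTCA, a loose form, with any middle base, of the AP-1 motif named for growth-factor-induced transcription factors. The sequences cover 250 bases before to 50 after the start, from RefSeq on GRCh38.p14. They read 5′ to 3′ on the strand of the gene, with the loose motif in capitals. The regions are chrX:47582186-47582485 (plus strand) for TIMP1, chr14:22836335-22836634 (plus strand) for MMP14, chr5:33891941-33892240 (minus strand) for ADAMTS12 and chr11:102780579-102780878 (minus strand) for MMP10.
TIMP1: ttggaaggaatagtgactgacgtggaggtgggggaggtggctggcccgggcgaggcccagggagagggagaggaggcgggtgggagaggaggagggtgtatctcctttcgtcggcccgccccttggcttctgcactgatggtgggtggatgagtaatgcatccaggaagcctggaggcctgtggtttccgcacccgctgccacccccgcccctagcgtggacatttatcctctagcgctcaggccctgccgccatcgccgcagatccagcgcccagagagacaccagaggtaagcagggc
MMP14: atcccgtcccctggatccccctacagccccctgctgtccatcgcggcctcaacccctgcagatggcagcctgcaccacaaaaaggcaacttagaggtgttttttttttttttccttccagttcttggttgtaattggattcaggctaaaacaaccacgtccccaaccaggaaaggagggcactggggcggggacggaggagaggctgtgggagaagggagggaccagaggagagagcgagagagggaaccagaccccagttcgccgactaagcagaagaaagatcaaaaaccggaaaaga
ADAMTS12: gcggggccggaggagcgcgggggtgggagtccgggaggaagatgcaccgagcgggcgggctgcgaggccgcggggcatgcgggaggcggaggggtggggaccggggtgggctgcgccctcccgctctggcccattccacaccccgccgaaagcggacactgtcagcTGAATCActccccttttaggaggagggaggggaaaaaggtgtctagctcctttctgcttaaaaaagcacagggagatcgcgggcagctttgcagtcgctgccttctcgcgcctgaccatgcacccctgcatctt
MMP10: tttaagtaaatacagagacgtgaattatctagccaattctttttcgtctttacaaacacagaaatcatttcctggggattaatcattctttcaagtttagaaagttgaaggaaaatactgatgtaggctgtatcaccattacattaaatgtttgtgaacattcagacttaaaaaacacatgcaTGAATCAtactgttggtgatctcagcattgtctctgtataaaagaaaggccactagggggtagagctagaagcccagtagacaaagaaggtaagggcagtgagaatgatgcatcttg
Of the 68 members, 40 were matched in the promoter table, and TGANTCA, a palindrome searched on both strands, was found in 3 of them. These were ADAMTS12 at position -84 from the start, and MMP10 and MMP7, both at -67. The middle base was A in ADAMTS12 and MMP10 and G in MMP7. Among 35116 promoters of the same length, 7.71% held this loose form, and a stricter form was not counted. Levels of these 3 members differed widely, with ADAMTS12 at 10.4 to 30.8 TPM over the 9 libraries, MMP10 at most at 0.346 TPM and MMP7 at most at 0.045 TPM. Members not matched, among them MMP1, MMP3, MMP9, MMP12 and MMP13, were not searched. Sites that differ from TGANTCA were neither counted nor marked, so a promoter without capitals may still hold such a site.

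Library totals were 55469030 to 83894938 counts. Mesenchymal markers were present in every library, with a summed level of 10761 to 12703 TPM in pseudopodia, 21165 to 24268 TPM in cell bodies and 22914 to 23672 TPM in whole cells. In the edgeR test described below, 7 of the 8 were called lower in pseudopodia than in cell bodies, as were 19.9% of all tested genes. PTPRC stayed at or below 0.122 TPM and EPCAM at or below 0.123 TPM in the 9 libraries. The summed levels of 5 haematopoietic markers were 29.9 to 36.5, 54.9 to 60.4 and 39.3 to 40.9 TPM in pseudopodia, cell bodies and whole cells. Those of 5 epithelial markers were 211 to 279, 249 to 293 and 147 to 157 TPM, those of 5 endothelial markers 38.8 to 50.0, 59.5 to 84.9 and 66.5 to 71.7 TPM, and those of 5 adipocyte markers 0.697 to 0.890, 0.491 to 0.936 and 1.51 to 1.88 TPM, in the same order. Their part in the differences described here was not tested. In bulk RNA, fewer molecules per cell and fewer cells that hold an mRNA cannot be told apart.

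The summed level of the 68 genes was 4393 ± 437 TPM in pseudopodia, 12401 ± 491 TPM in cell bodies and 9301 ± 92.1 TPM in whole cells (mean ± SD, n = 3 each). Pseudopodia had the lowest TPM sum in each of the 5 families, overlapping neither of the other groups. On log2(TPM + 1), however, the median log2 fold change of all genes in pseudopodia was itself -0.25 against cell bodies and -0.44 against whole cells. In the edgeR test of counts described below, 4 of 16 tested ADAMTS genes fell and 3 rose in pseudopodia against whole cells, where 33.1% and 27.9% of all genes did. MMP mRNA summed to 1142 ± 95.1 TPM in pseudopodia, 3162 ± 146 TPM in cell bodies and 2982 ± 48.6 TPM in whole cells, and ADAM mRNA to 272 ± 7.47, 595 ± 25.5 and 868 ± 25.8 TPM in the same order. For ADAMTS genes the sums were 251 ± 9.44 TPM in pseudopodia, 462 ± 59.7 TPM in cell bodies and 487 ± 24.4 TPM in whole cells. TIMP mRNA was the most abundant of the families in every group, at 2676 ± 353 TPM in pseudopodia, 8033 ± 382 TPM in cell bodies and 4774 ± 117 TPM in whole cells. Relative to the MMP sum, the TIMP sum was 2.34 ± 0.129 in pseudopodia, 2.54 ± 0.124 in cell bodies and 1.60 ± 0.0578 in whole cells.

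**Figure D1:**
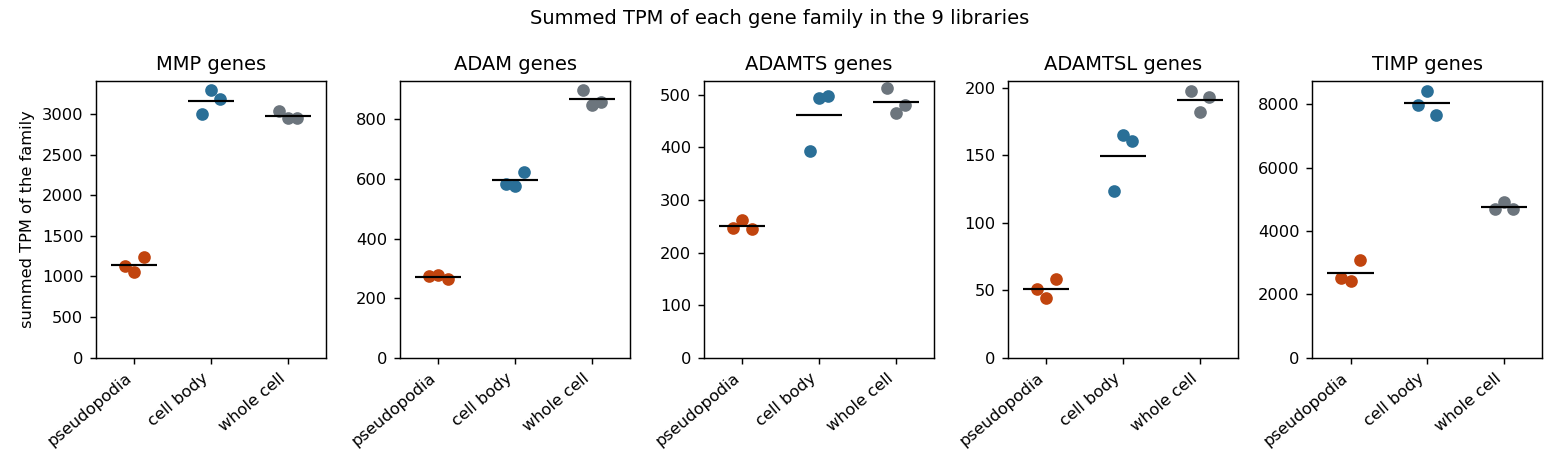
Summed TPM of the MMP, ADAM, ADAMTS, ADAMTSL and TIMP genes (y axis, TPM, from 0) in the 3 pseudopodia, 3 cell body and 3 whole cell libraries (points) with the mean of each group (line). On this TPM scale, where the median of all genes was also lower in pseudopodia, pseudopodia are lowest in each panel. MMP genes are at 1142 TPM there against 3162 TPM in cell bodies, while TIMP genes are highest in cell bodies at 8033 TPM.

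Counts were compared with edgeR's quasi-likelihood test over 19426 genes, scaled by TMM (a factor per library that balances the bulk of genes), and calls were made at a Benjamini-Hochberg adjusted p under 0.05. In pseudopodia against cell bodies, 28 of the 54 tested members fell and 2 rose (ADAMTS13 and ADAMTSL3). Of all tested genes, 19.9% fell and 18.6% rose. ADAMTSL3 passed the expression filter only through pseudopodia, so its rise is no evidence of a direction. The median log2 fold change of the 54 members was -0.59, against -0.05 for all genes. At least 2-fold falls were called for 21 members, and for 12.3% of all genes. By family, 9 of 15 tested MMP, 8 of 14 ADAM, 5 of 16 ADAMTS, 3 of 5 ADAMTSL and 3 of 4 TIMP genes fell. Without pseudopodia replicate 3, whose values stand apart for several members described below, 27 members fell and 2 rose. Of 20371 genes, 4506 fell and 3791 rose in that fit.

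In pseudopodia against whole cells, 27 members fell and 6 rose (ADAM17, ADAM19, ADAMTS4, ADAMTS9, ADAMTS13 and ADAMTSL3). Of all genes, 33.1% fell and 27.9% rose. Again, ADAMTSL3 is counted though it passed the filter only through pseudopodia. ADAMTS9 was near the floor, with 46, 67 and 41 counts (mean 0.251 TPM) in pseudopodia and 34, 24 and 10 counts (mean 0.129 TPM) in whole cells. The median log2 fold change was -0.63 for members and -0.12 for all genes. This comparison shares the pseudopodia libraries with the first. In cell bodies against whole cells, 6 members fell and 7 rose, where 20.5% of all genes fell and 18.1% rose, and both medians were -0.06. Those that rose were TIMP1, TIMP3, ADAMTS4, ADAM17, MMP1, ADAMTS15 and MMP14. MMP21, which fell against whole cells in both fractions, passed the expression filter only with the whole cell libraries. In cell bodies against whole cells without pseudopodia replicate 3, 11 members fell and 11 rose, where 5411 and 4988 of 20371 genes did. With limma-voom 14 members fell and 16 rose, where 6245 and 5722 of all 19426 genes fell and rose. The fold changes are on the TMM scale. On log2(TPM + 1) the median of all genes was itself -0.25 in pseudopodia against cell bodies and -0.44 against whole cells, and 2157 genes rose and 5542 fell in pseudopodia against cell bodies, where the counts gave 3605 and 3870. Against whole cells the TPM scale gave 3047 risen and 8233 fallen genes in pseudopodia, where counts gave 5412 and 6430. In cell bodies against whole cells it gave 2522 risen and 4765 fallen genes, where counts gave 3521 and 3980.

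**Figure D2:**
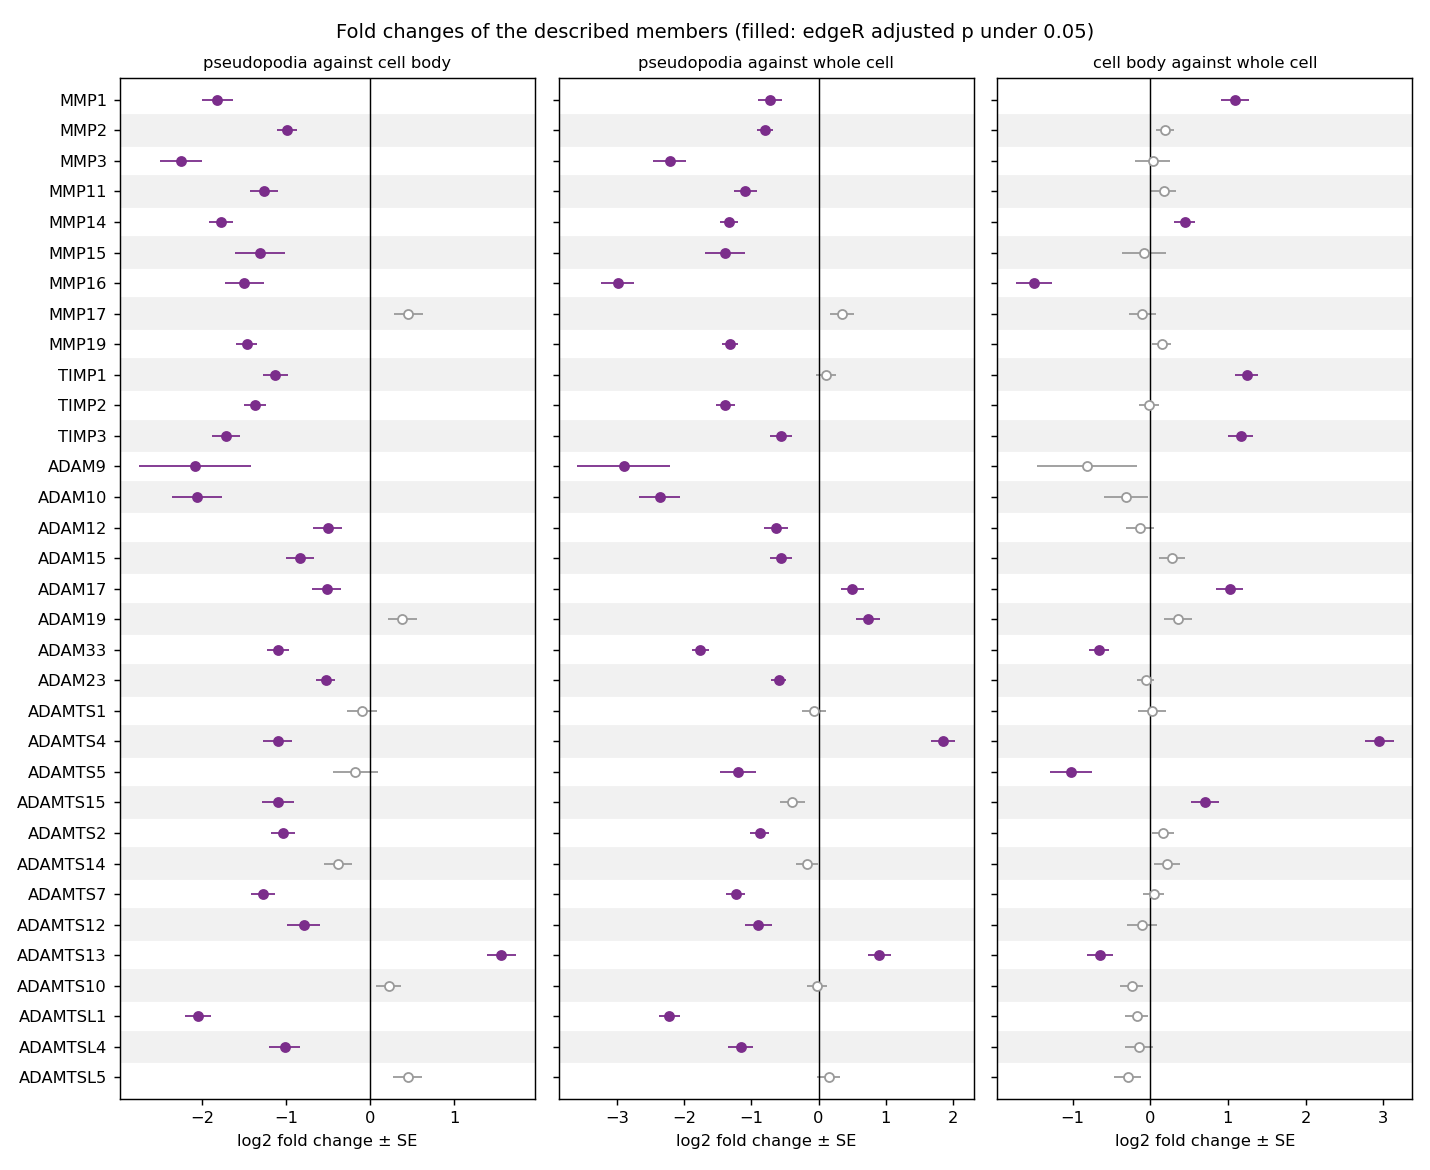
Log2 fold change ± SE (x axes) of the 33 members described by name, ordered by role, in pseudopodia against cell body, pseudopodia against whole cell and cell body against whole cell. Filled points passed edgeR at an adjusted p under 0.05. In the first panel most filled points lie left of 0 and ADAMTS13 lies to the right at 1.55.

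Among MMPs, the gelatinase MMP2, which cuts denatured collagen and basement membrane collagen, and the collagenolytic membrane protease MMP14 made up 96.3% of the MMP sum in pseudopodia, 97.4% in cell bodies and 96.9% in whole cells. MMP2 was at 863, 804 and 924 TPM in pseudopodia, 2015, 2185 and 2075 TPM in cell bodies and 2100, 2065 and 2039 TPM in whole cells. All pseudopodia libraries lay below the other 6, and MMP2 fell by 0.99 ± 0.12 (SE) on the log2 scale against cell bodies (edgeR adjusted p = 6.67e-05) and by 0.79 ± 0.12 against whole cells (adjusted p = 0.000169). Cell bodies and whole cells overlapped, and their difference did not pass. MMP14 was at 225, 212 and 270 TPM in pseudopodia, 908, 1029 and 1024 TPM in cell bodies and 845, 789 and 829 TPM in whole cells. It fell by 1.77 ± 0.14 against cell bodies (adjusted p = 3.48e-06) and by 1.33 ± 0.14 against whole cells (adjusted p = 1.29e-05) on the log2 scale. As a share of the MMP sum, MMP2 was higher in pseudopodia, at 75.7 ± 1.16%, than in cell bodies, at 66.2 ± 0.934%, and in whole cells, at 69.4 ± 0.565%, with no overlap between groups.

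MMP14 was higher in cell bodies than in whole cells by a log2 fold change of 0.44 ± 0.14 (edgeR adjusted p = 0.0253). That call was lost without cell body replicate 2 (0.41, adjusted p = 0.0734) or replicate 3 (0.46, adjusted p = 0.0623) and without whole cell replicate 1, 2 or 3 (0.46, 0.44 and 0.46, adjusted p = 0.0756, 0.0787 and 0.0694). It was also lost with upper-quartile factors (0.35, adjusted p = 0.0791) and on log2(TPM + 1), where the value was 0.26 (limma adjusted p = 0.0662).

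The other membrane-type MMPs did not move as 1 group. MMP15 had 0.465, 0.578 and 1.04 TPM in pseudopodia, 2.06, 2.11 and 2.11 TPM in cell bodies and 2.67, 1.92 and 2.91 TPM in whole cells, and fell by 1.31 ± 0.30 on the log2 scale in pseudopodia against cell bodies (edgeR adjusted p = 0.00508). MMP16 had 0.638, 1.196 and 0.636 TPM in pseudopodia, 2.46, 3.30 and 2.67 TPM in cell bodies and 9.77, 7.997 and 9.22 TPM in whole cells. Its groups formed 3 separate levels, with a log2 fold change of -1.50 ± 0.23 in pseudopodia against cell bodies (adjusted p = 0.000431) and of -1.50 ± 0.23 in cell bodies against whole cells (adjusted p = 0.000614). MMP17, which is held in the membrane by a lipid anchor and not by a transmembrane stretch, had 17.7, 16.1 and 23.9 TPM in pseudopodia, 18.6, 16.4 and 16.7 TPM in cell bodies and 21.1, 21.7 and 19.9 TPM in whole cells. Its pseudopodia values overlapped both other groups, and it passed in none of the 3 comparisons.

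The secreted interstitial collagenase MMP1 was scarce, at 1.58, 1.93 and 1.37 TPM in pseudopodia, 6.72, 6.22 and 7.99 TPM in cell bodies and 3.43, 3.77 and 3.89 TPM in whole cells. Its 3 groups did not overlap, and it fell by 1.81 ± 0.18 on the log2 scale in pseudopodia against cell bodies (edgeR adjusted p = 1.91e-05) and was 1.09 ± 0.18 higher on that scale in cell bodies than in whole cells (adjusted p = 0.000934). Stromelysin MMP3, an activator of other MMPs, had 0.797, 0.543 and 0.878 TPM in pseudopodia, 4.502, 4.41 and 3.91 TPM in cell bodies and 4.23, 5.43 and 4.54 TPM in whole cells. Its log2 fold change in pseudopodia against cell bodies was -2.25 ± 0.25 (adjusted p = 3.73e-05). MMP11, which furin activates inside the cell, had 5.45, 4.30 and 5.52 TPM in pseudopodia, 15.2, 13.5 and 16.1 TPM in cell bodies and 15.2, 16.7 and 13.1 TPM in whole cells, and fell by 1.26 ± 0.17 in pseudopodia against cell bodies (adjusted p = 0.000134). MMP19, a secreted MMP found in many tissues, had 8.90, 7.96 and 8.63 TPM in pseudopodia, 28.6, 29.1 and 28.1 TPM in cell bodies and 29.5, 29.4 and 28.8 TPM in whole cells. Its log2 fold change was -1.46 ± 0.12 in pseudopodia against cell bodies (adjusted p = 4.93e-06). MMP3, MMP11 and MMP19 were each also lower in pseudopodia than in whole cells, with log2 fold changes of -2.22, -1.09 and -1.32, and passed no test of cell bodies against whole cells. MMP1 shares 7.61% of its exon bases with WTAPP1 and MMP19 17.4% with TMEM198B on the opposite strand. The strand setting of the counting is not given, so reads of such pairs cannot be told apart.

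**Figure D3:**
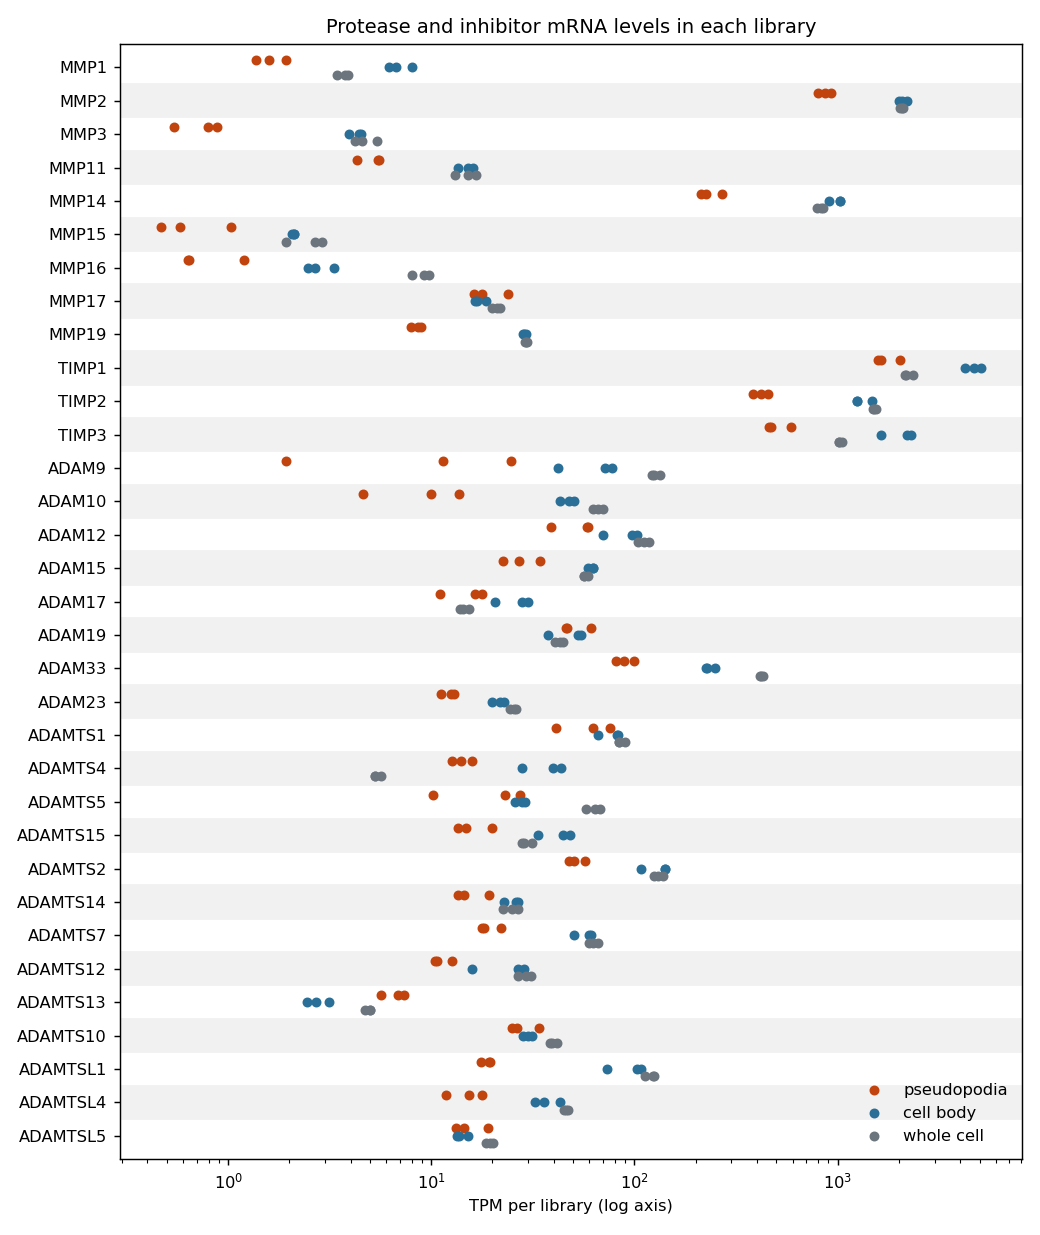
TPM per library (x axis, log scale) of the 33 members described by name, by role from MMPs at the top to ADAMTSL genes at the bottom, with pseudopodia, cell body and whole cell libraries as separate colours. TIMP1 reaches 5106 TPM in a cell body library, MMP15 is as low as 0.465 TPM in pseudopodia, and ADAM9 is at 1.93 TPM in 1 pseudopodia library.

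The 3 abundant inhibitors all fell in pseudopodia against cell bodies, while their levels in whole cells had no common order. TIMP1, a secreted inhibitor of most soluble MMPs, had 1634, 1575 and 2030 TPM in pseudopodia, 5106, 4669 and 4216 TPM in cell bodies and 2151, 2352 and 2176 TPM in whole cells. It fell by 1.13 ± 0.15 on the log2 scale in pseudopodia against cell bodies (edgeR adjusted p = 0.000145) and was higher in cell bodies than in whole cells by 1.24 ± 0.15 (adjusted p = 0.00014). Pseudopodia and whole cells did not differ beyond the spread in counts, with a log2 fold change of 0.12 ± 0.15 (adjusted p = 0.515), whereas on log2(TPM + 1) the difference of pseudopodia from whole cells was -0.358 (limma adjusted p = 0.0193).

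TIMP2 had 419, 384 and 455 TPM in pseudopodia, 1241, 1475 and 1249 TPM in cell bodies and 1498, 1539 and 1505 TPM in whole cells. It fell in pseudopodia by 1.37 ± 0.13 against cell bodies (edgeR adjusted p = 1.56e-05) and by 1.39 ± 0.13 against whole cells (adjusted p = 7.87e-06) on the log2 scale, with no call between cell bodies and whole cells. TIMP3, which stays bound to matrix and also inhibits ADAM17, had 461, 470 and 591 TPM in pseudopodia, 1635, 2288 and 2206 TPM in cell bodies and 1056, 1015 and 1019 TPM in whole cells. Its 3 groups did not overlap, with log2 fold changes of -1.72 ± 0.17 in pseudopodia against cell bodies (adjusted p = 1.41e-05) and 1.16 ± 0.16 in cell bodies against whole cells (adjusted p = 0.000379). Against whole cells TIMP3 fell by 0.55 ± 0.16 in pseudopodia (adjusted p = 0.012), a call lost without pseudopodia replicate 1 (-0.48, adjusted p = 0.0538). TIMP4, the least abundant inhibitor, was at 1.73 to 4.20 TPM in pseudopodia, 3.68 to 5.09 TPM in cell bodies and 2.64 to 3.37 TPM in whole cells and passed no test. As a share of the TIMP sum, TIMP1 was 65.2 ± 0.599% in pseudopodia, 58.1 ± 5.08% in cell bodies and 46.6 ± 1.16% in whole cells.

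ADAM10 and ADAM9, both membrane sheddases, had low and uneven levels in pseudopodia. ADAM10, which cuts Notch receptors, N-cadherin and the amyloid precursor protein, had 9.93, 13.7 and 4.59 TPM in pseudopodia, 43.1, 47.5 and 50.6 TPM in cell bodies and 70.0, 62.2 and 66.0 TPM in whole cells. It fell by 2.05 ± 0.30 on the log2 scale in pseudopodia against cell bodies (edgeR adjusted p = 0.000533) and by 2.37 ± 0.30 against whole cells (adjusted p = 0.000125). ADAM9 had 11.4, 24.6 and 1.93 TPM in pseudopodia, 77.6, 42.1 and 71.9 TPM in cell bodies and 134, 122 and 125 TPM in whole cells. Its log2 fold change was -2.08 ± 0.67 in pseudopodia against cell bodies (adjusted p = 0.0352) and -2.90 ± 0.69 against whole cells (adjusted p = 0.00536). The call against cell bodies was lost without pseudopodia replicate 1 (-2.03, adjusted p = 0.0918), without cell body replicate 1 (-1.89, adjusted p = 0.089) or 3 (-2.00, adjusted p = 0.083), and without whole cell replicate 1, 2 or 3 (-2.07, -2.07 and -2.08, adjusted p = 0.0547, 0.0563 and 0.0549). It was also lost with no low-count filter (-2.06, adjusted p = 0.154) and in a fit of the 6 libraries compared (-2.10, adjusted p = 0.0844).

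Of the 16 tested members with a GC content below the median of all genes (48.2%), 12 were lower in pseudopodia replicate 3 than in replicate 2, and of the other 38 tested members 3 were lower. The log2 ratio of replicate 3 to replicate 2 was -3.49 for ADAM9, whose longest transcript has 39.4% GC, -1.44 for ADAM10 (38.3% GC), -1.30 for ADAMTS5 (40.8% GC), -0.68 for MMP16 (36.4% GC), -0.56 for ADAM17 (38.5% GC) and -0.47 for ADAM12 (47.0% GC). It was 0.35 for MMP3 (44.8% GC), which went the other way, and -0.74 for ADAMTS1 and 0.45 for TIMP3, whose GC contents are alike (48.6% and 48.7%). Over the 54 tested members this ratio followed GC content with r = 0.63, and over 18675 genes with r = 0.63, as a description across genes of the same 2 libraries. The log2 fold change of pseudopodia against cell bodies had r = 0.17 with GC content over members and r = 0.19 over all genes. Without pseudopodia replicate 3, ADAM10 had a log2 fold change of -1.74 ± 0.13 against cell bodies (edgeR adjusted p = 1.14e-06) and ADAM9 of -1.58 ± 0.38 (adjusted p = 0.0161). The part of GC content in these differences was not tested further.

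**Figure D4:**
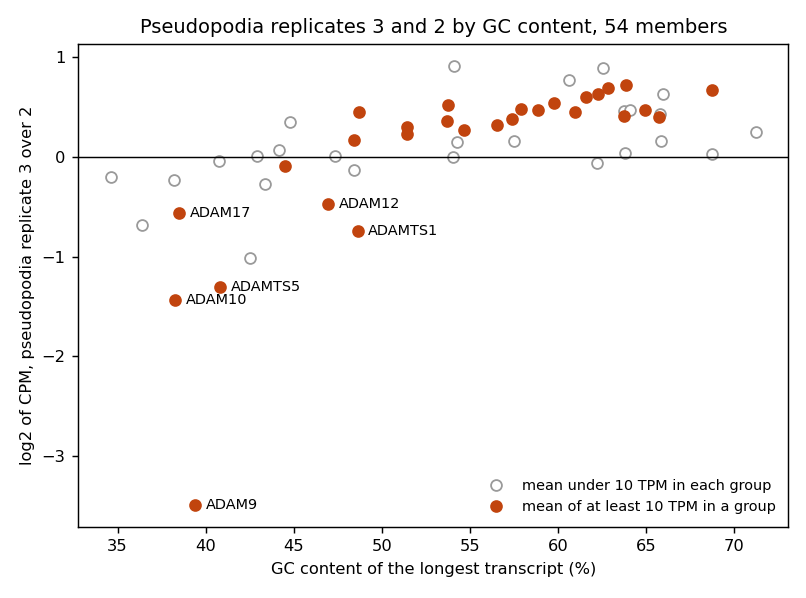
Log2 ratio of TMM-scaled CPM in pseudopodia replicate 3 over replicate 2 (y axis) against the GC content of the longest transcript in percent (x axis) for the 54 tested members, filled where the mean reaches 10 TPM in a group. ADAM9 lies lowest at -3.49, and 12 of the 16 members with GC content below 48.2% lie below 0.

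ADAM17, the converting enzyme of TNF precursor and a sheddase of EGF receptor ligands, had 16.4, 17.7 and 11.02 TPM in pseudopodia, 20.7, 28.0 and 29.8 TPM in cell bodies and 15.4, 13.9 and 14.4 TPM in whole cells. It was higher in cell bodies than in whole cells by 1.02 ± 0.18 on the log2 scale (edgeR adjusted p = 0.00128). Pseudopodia lay below cell bodies and overlapped whole cells in TPM, with log2 fold changes of -0.52 ± 0.18 (adjusted p = 0.0358) and 0.50 ± 0.18 (adjusted p = 0.0268). The call against cell bodies was lost without pseudopodia replicate 1 or 3 (-0.59 and -0.36, adjusted p = 0.0514 and 0.0513), cell body replicate 2 or 3 (-0.46 and -0.42, adjusted p = 0.113 and 0.131), or whole cell replicate 1, 2 or 3 (-0.50, -0.50 and -0.52, adjusted p = 0.0563, 0.0568 and 0.0559). It was also lost in a fit of the 6 libraries compared (-0.57, adjusted p = 0.0912) and with TMM factors from genes other than mitochondrial and ribosomal protein genes (-0.40, adjusted p = 0.0772). That against whole cells was lost without pseudopodia replicate 1 or 2 (0.44 and 0.41, adjusted p = 0.0864 and 0.0714) or whole cell replicate 2 or 3 (0.52 and 0.51, adjusted p = 0.0563 and 0.0701), at a filter of 5 CPM (0.39, adjusted p = 0.104), and on log2(TPM + 1), where it was 0.02 (limma adjusted p = 0.924). ADAM17 shares 12.3% of its exon bases with IAH1 on the opposite strand.

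ADAM33, a protease expressed in mesenchymal cells, was the most abundant ADAM mRNA, at 88.3, 81.4 and 99.5 TPM in pseudopodia, 250, 225 and 228 TPM in cell bodies and 429, 418 and 413 TPM in whole cells. Each group was separate, with a log2 fold change of -1.10 ± 0.13 in pseudopodia against cell bodies (edgeR adjusted p = 5.49e-05), -1.76 ± 0.13 in pseudopodia against whole cells (adjusted p = 1.24e-06) and -0.66 ± 0.13 in cell bodies against whole cells (adjusted p = 0.00237). ADAM15, which carries an integrin-binding motif, had 27.1, 22.5 and 34.3 TPM in pseudopodia, 62.4, 58.8 and 62.8 TPM in cell bodies and 56.3, 58.7 and 56.1 TPM in whole cells. It fell by 0.84 ± 0.17 on the log2 scale against cell bodies (adjusted p = 0.00214) and by 0.56 ± 0.16 against whole cells (adjusted p = 0.0124), the second of these lost without whole cell replicate 2 (-0.49, adjusted p = 0.0613).

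ADAM19, which cuts neuregulin precursors, had 46.5, 46.2 and 61.3 TPM in pseudopodia, 37.5, 54.2 and 52.9 TPM in cell bodies and 44.4, 40.4 and 42.9 TPM in whole cells. Pseudopodia lay within the range of cell bodies except for replicate 3 and above whole cells, and ADAM19 passed only against whole cells, by 0.74 ± 0.18 on the log2 scale (edgeR adjusted p = 0.00389), but not on log2(TPM + 1), where it was 0.25 (limma adjusted p = 0.192). ADAM12, known for its part in muscle and fat cell differentiation, had 59.2, 58.4 and 38.8 TPM in pseudopodia, 69.6, 97.3 and 103 TPM in cell bodies and 118, 105 and 111 TPM in whole cells, and fell by 0.64 ± 0.18 against whole cells (edgeR adjusted p = 0.00858). Against cell bodies its log2 fold change of -0.51 ± 0.18 (adjusted p = 0.0408) was lost without pseudopodia replicate 3 (-0.36, adjusted p = 0.0691), cell body replicate 2 or 3 (-0.44 and -0.40, adjusted p = 0.128 and 0.143), whole cell replicate 1, 2 or 3 (-0.49, -0.49 and -0.51, adjusted p = 0.0627, 0.0625 and 0.0626). It was also lost in a fit of the 6 libraries compared (-0.55, adjusted p = 0.095) and with TMM factors from genes other than mitochondrial and ribosomal protein genes (-0.39, adjusted p = 0.0878). ADAM23, which lacks protease activity and binds integrins, had 12.6, 12.9 and 11.2 TPM in pseudopodia, 19.96, 21.7 and 22.9 TPM in cell bodies and 26.1, 24.3 and 25.7 TPM in whole cells. It fell by 0.53 ± 0.11 against cell bodies (adjusted p = 0.00361) and by 0.59 ± 0.11 against whole cells (adjusted p = 0.000999).

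The ADAMTS proteoglycanases, which cut aggrecan, versican and related proteoglycans, had unlike patterns. ADAMTS4 had 12.7, 13.9 and 15.8 TPM in pseudopodia, 28.1, 43.3 and 39.6 TPM in cell bodies and 5.65, 5.30 and 5.27 TPM in whole cells. Whole cells were lowest and cell bodies highest, with log2 fold changes of -1.10 ± 0.17 in pseudopodia against cell bodies (edgeR adjusted p = 0.000443), 1.85 ± 0.18 in pseudopodia against whole cells (adjusted p = 6.81e-06) and 2.95 ± 0.18 in cell bodies against whole cells (adjusted p = 1.39e-06). ADAMTS5, the other well-known aggrecanase, had 23.0, 27.4 and 10.1 TPM in pseudopodia, 25.7, 28.0 and 28.8 TPM in cell bodies and 67.9, 57.4 and 64.1 TPM in whole cells. Here whole cells were highest, with log2 fold changes of -1.20 ± 0.27 in pseudopodia (adjusted p = 0.0038) and -1.02 ± 0.27 in cell bodies (adjusted p = 0.0153) against whole cells. The second of these was lost without cell body replicate 1 (-0.97, adjusted p = 0.0572) or with no low-count filter (-0.95, adjusted p = 0.0918), and pseudopodia overlapped cell bodies with no call.

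ADAMTS1, a versican-cleaving protease, had 62.7, 75.3 and 41.3 TPM in pseudopodia, 66.2, 82.5 and 83.0 TPM in cell bodies and 89.8, 83.9 and 83.9 TPM in whole cells, and passed no test. ADAMTS15 had 13.6, 14.8 and 19.9 TPM in pseudopodia, 33.6, 44.7 and 48.1 TPM in cell bodies and 31.1, 27.9 and 28.7 TPM in whole cells. Its cell body libraries were highest, with log2 fold changes of -1.10 ± 0.19 in pseudopodia against cell bodies (edgeR adjusted p = 0.000807) and 0.70 ± 0.19 in cell bodies against whole cells (adjusted p = 0.0122).

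Of the procollagen N-proteinases, which remove the amino-terminal propeptide of fibrillar procollagens, ADAMTS2 had 50.6, 47.6 and 57.1 TPM in pseudopodia, 108, 141 and 141 TPM in cell bodies and 138, 125 and 131 TPM in whole cells. It fell by 1.04 ± 0.14 against cell bodies (edgeR adjusted p = 0.000193) and by 0.88 ± 0.14 against whole cells (adjusted p = 0.000326) on the log2 scale. ADAMTS14 had 14.5, 13.6 and 19.1 TPM in pseudopodia, 22.8, 26.8 and 26.1 TPM in cell bodies and 26.6, 24.8 and 22.6 TPM in whole cells, lowest in pseudopodia in TPM but with no call in counts. ADAMTS7 and ADAMTS12, which cut cartilage oligomeric matrix protein, were both lower in pseudopodia. ADAMTS7 had 17.7, 18.1 and 22.1 TPM in pseudopodia, 50.6, 61.3 and 59.7 TPM in cell bodies and 65.9, 60.0 and 62.4 TPM in whole cells, with a log2 fold change of -1.28 ± 0.14 against cell bodies (adjusted p = 4.03e-05). ADAMTS12 had 12.7, 10.4 and 10.7 TPM in pseudopodia, 15.9, 26.7 and 28.7 TPM in cell bodies and 30.8, 26.7 and 29.2 TPM in whole cells, with a log2 fold change of -0.79 ± 0.20 against cell bodies (adjusted p = 0.00851). ADAMTS10, linked to fibrillin microfibrils, had 24.8, 26.4 and 33.8 TPM in pseudopodia, 31.2, 28.4 and 29.8 TPM in cell bodies and 41.6, 38.5 and 39.1 TPM in whole cells, and passed no test in counts.

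ADAMTS13, the protease that cuts von Willebrand factor, was higher in pseudopodia than in both other groups. It had 6.88, 5.68 and 7.36 TPM in pseudopodia, 3.15, 2.45 and 2.70 TPM in cell bodies and 5.02, 5.00 and 4.69 TPM in whole cells. Every pseudopodia library was above the other 6, and ADAMTS13 rose by 1.55 ± 0.17 against cell bodies (edgeR adjusted p = 3.89e-05) and by 0.90 ± 0.17 against whole cells (adjusted p = 0.000827) on the log2 scale. Cell bodies were lower than whole cells by a log2 fold change of -0.65 ± 0.17 (adjusted p = 0.0121), a call lost without cell body replicate 2 or 3 (-0.57 and -0.59, adjusted p = 0.0571 and 0.0626) or whole cell replicate 1 or 2 (-0.64 and -0.61, adjusted p = 0.0531 and 0.0576).

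ADAMTSL proteins share the ancillary domains of ADAMTS proteases, and several bind fibrillin. ADAMTSL1 had 19.2, 17.5 and 19.5 TPM in pseudopodia, 73.5, 103 and 107 TPM in cell bodies and 125, 113 and 124 TPM in whole cells. Its pseudopodia values were far below the other groups, with log2 fold changes of -2.05 ± 0.16 against cell bodies (edgeR adjusted p = 2.85e-06) and -2.22 ± 0.16 against whole cells (adjusted p = 9.52e-07). ADAMTSL4 had 15.3, 11.8 and 17.7 TPM in pseudopodia, 32.2, 43.0 and 35.7 TPM in cell bodies and 47.3, 45.1 and 46.2 TPM in whole cells, and fell by 1.02 ± 0.18 on the log2 scale against cell bodies (adjusted p = 0.00103). It shares 11.4% of its exon bases with ADAMTSL4-AS1 on the opposite strand. ADAMTSL5 had 14.5, 13.3 and 19.1 TPM in pseudopodia, 13.6, 15.1 and 13.4 TPM in cell bodies and 20.2, 19.4 and 18.7 TPM in whole cells and passed no test.

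The remaining 21 tested members averaged at most 5.06 TPM in any group. Of these, 3 fell (ADAMTSL2, ADAM21 and MMP21) and 1 rose (ADAMTSL3) in pseudopodia against cell bodies, and the 2 with the most extreme fold changes, chosen after their values were seen, rest on few reads. ADAMTSL3 had 15, 28 and 20 counts in pseudopodia, 0, 2 and 0 counts in cell bodies and 2, 2 and 6 counts in whole cells. It passed the expression filter only through pseudopodia, so it had to differ, and its fitted log2 fold change against cell bodies was 4.72 with all libraries and 7.49 without cell body replicate 2. MMP21 had 1, 0 and 0 counts in pseudopodia, 11, 3 and 5 counts in cell bodies and 34, 30 and 12 counts in whole cells. It passed the expression filter only with the whole cell libraries, so its falls against them are no evidence of a direction. The inducible proteases MMP8, MMP9, MMP10, MMP12 and MMP13 were among the 14 untested members, with at most 9 counts in any library. MMP23A and MMP23B are near-identical copies whose reads may have been split, and both passed no test.

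Whole cells lay above all 6 fraction libraries in TMM-scaled CPM (counts relative to the library total) for 10 of the 54 tested members, a share of 18.5%, where 25.2% of all genes did, and below all 6 for 3 members (5.56%), where 19.3% of all genes did. Those above were ADAM9, ADAM10, ADAM28, ADAM32, ADAM33, ADAMTS3, ADAMTS5, MMP16, MMP21 and MMP25, and those below were ADAM17, ADAMTS4 and MMP28. ADAMTS3 and MMP21 would not have passed the expression filter without the whole cell libraries, so their place above is no evidence of a direction. Neither share exceeds that of all genes.

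Genes that act on these proteases were counted in the same comparisons. Of all genes, 19.9% fell and 18.6% rose in pseudopodia against cell bodies. Against whole cells 33.1% fell and 27.9% rose. Of 10 tested genes of the plasminogen system and of proprotein convertases, 7 fell and 1 rose in pseudopodia against cell bodies. Against whole cells 4 fell and 2 rose. The one that rose against cell bodies was FURIN, which activates MMP14 and many ADAM precursors, at 277 ± 49.8 TPM in pseudopodia, 225 ± 24.5 TPM in cell bodies and 154 ± 7.16 TPM in whole cells (mean ± SD, n = 3 each), a log2 fold change of 0.60 ± 0.16 (edgeR adjusted p = 0.012). F2R, the thrombin receptor that MMP1 can also cut, had 41.4 ± 20.1 TPM in pseudopodia, 249 ± 23.0 TPM in cell bodies and 276 ± 9.55 TPM in whole cells, and fell by 2.32 ± 0.32 on the log2 scale (adjusted p = 0.000386).

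Of 11 other tested inhibitors and clearance receptors, 10 fell in pseudopodia against cell bodies and none rose, with a median log2 fold change of -1.71. Against whole cells 8 fell and 2 rose. SPOCK1, a matrix proteoglycan that can hinder activation of MMP2 by membrane-type MMPs, had 118 ± 43.7 TPM in pseudopodia, 718 ± 106 TPM in cell bodies and 999.5 ± 41.2 TPM in whole cells, and fell by 2.33 ± 0.24 on the log2 scale (edgeR adjusted p = 3.16e-05). TFPI2, a secreted inhibitor of plasmin, had 8.83 ± 1.56 TPM in pseudopodia, 44.0 ± 3.14 TPM in cell bodies and 27.7 ± 0.670 TPM in whole cells, and fell by 2.04 ± 0.15 (adjusted p = 1.88e-06). RECK, a membrane-anchored inhibitor of MMPs chosen after its values were seen, had 48.6 ± 8.75 TPM in pseudopodia, 193 ± 27.6 TPM in cell bodies and 285 ± 9.51 TPM in whole cells, and fell by 1.71 ± 0.15 (adjusted p = 6.52e-06).

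Among 11 tested escorts and regulators of ADAM10 and ADAM17, 6 fell and 1 rose in pseudopodia against cell bodies, and 6 fell and 3 rose against whole cells. The one that rose against cell bodies was TSPAN17, a tetraspanin that accompanies ADAM10, at 58.6 ± 11.9 TPM in pseudopodia, 45.0 ± 1.43 TPM in cell bodies and 39.2 ± 0.968 TPM in whole cells, a log2 fold change of 0.68 ± 0.16 (edgeR adjusted p = 0.00593). PDIA6, a disulfide isomerase reported to act on ADAM17, had 78.7 ± 2.67 TPM in pseudopodia, 232 ± 11.8 TPM in cell bodies and 213 ± 2.46 TPM in whole cells, and fell by 1.28 ± 0.11 (adjusted p = 5.04e-06).

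Of 17 tested matrix substrates, 15 fell and none rose in pseudopodia against cell bodies, with a median log2 fold change of -1.68. Against whole cells 14 fell and none rose. VCAN, the versican that ADAMTS1 and ADAMTS5 cut, had 3.995 ± 1.69 TPM in pseudopodia, 33.3 ± 17.7 TPM in cell bodies and 101 ± 7.76 TPM in whole cells, and fell by 2.79 ± 0.39 on the log2 scale (edgeR adjusted p = 0.000454). FN1, which encodes fibronectin, had 1200 ± 32.6 TPM in pseudopodia, 7501 ± 2087 TPM in cell bodies and 9941 ± 635 TPM in whole cells, and fell by 2.36 ± 0.19 (adjusted p = 3.98e-06). Of 11 other secreted or surface metalloproteases, 7 fell and 1 rose against whole cells. Against cell bodies 7 fell and 1 rose. The gene that rose against cell bodies was PAPPA2, a protease of insulin-like growth factor binding proteins, at 2.39 ± 0.208 TPM in pseudopodia, 1.42 ± 0.511 TPM in cell bodies and 1.67 ± 0.280 TPM in whole cells. Each of these lists was chosen with earlier results of the same libraries known, so its count is a description and not independent evidence of a direction.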

How the data were processed

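The authors deposited raw gene counts, made with featureCounts per the labels, and a TPM value for each gene in each library. DESeq2 and the build GRCh38 are named per the submitters' processing notes, while the aligner, annotation release and strand setting were not given in the sources used here. Counts and TPM shared 1 length per gene, and 1 blank line was left out. Here, edgeR 4.0.16 (R 4.3.3) was run on the counts of all 9 libraries in 1 fit (TMM, filter by group, robust quasi-likelihood test, Benjamini-Hochberg over 19426 genes, adjusted p under 0.05). limma 3.58.1 on log2 of the deposited TPM and DESeq2 1.42.0 were alternatives, and the test was checked on simulated data. For pseudopodia against cell bodies it called 1.2% of simulated 1.5-fold, 26.3% of 2-fold and 78.3% of 4-fold differences. There, 83, 57 and 60 of 18912 genes were changed by these folds, whereas 3605 of 19426 genes rose and 3870 fell in the data. An adjusted p under 0.05 asks for a smaller unadjusted p when fewer genes change. These rates therefore do not give the share of real differences found here. A member that passed no test may still differ.

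A member was described by name where its mean reached 10 TPM in a group, or where it was called with at least a 2-fold difference and reached 1 TPM. Other genes named come from fixed lists (at most 3 genes per direction, called in pseudopodia against cell bodies and averaging at least 1 TPM in a group, by largest fold), are PTPRC and EPCAM as defining markers of other cell types, or are stated to be chosen after their values were seen. The members and lists were chosen with earlier results of these data known. Roles were assigned from background knowledge.

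Whether replicate libraries are separate cultures is not stated in the labels. The p-values therefore reflect only how far these samples vary, and that variation may be technical. That spread was unequal (biological coefficient of variation 33% in pseudopodia, 17.6% in cell bodies and 5.08% in whole cells), and 1 shared spread per gene was fitted. Replicate numbers did not pair the libraries (correlations of same-numbered libraries -0.0807 to 0.0901). One result from the related lists is not reported here.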

Additional observations from a re-analysis of the deposited data

How the results depend on the processing

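Of 63 calls on the members described by name, 53 were kept under each of the 20 alternatives (9 of them left out 1 library), and 10 were lost under at least 1. The fold change of 16 moved by over 1.5 times under an alternative, each on a log2 TPM scale only. Of 36 member comparisons that were not called, 18 passed under at least 1 alternative and 18 changed sign under at least 1. These 36 include ADAMTSL3 in cell bodies against whole cells and leave out TIMP1 in pseudopodia against whole cells, given below. Members that fell in pseudopodia numbered 25 to 29 against cell bodies and 26 to 29 against whole cells when 1 library was left out, where all 9 gave 28 and 27. Members that rose numbered 2 to 4 against cell bodies, with 4 without pseudopodia replicate 2, and 4 to 7 against whole cells. In cell bodies against whole cells, 6 to 11 rose and 4 to 11 fell, with 11 and 11 without pseudopodia replicate 3. Over the same fits, of 19872 to 20407 genes, 3142 to 4561 fell and 2892 to 4020 rose in pseudopodia against cell bodies. Against whole cells, 5440 to 6978 genes fell and 4747 to 5741 rose in pseudopodia, and 2711 to 5411 fell and 2338 to 4988 rose in cell bodies. Members that rose in pseudopodia against cell bodies numbered 6 with TMM factors from genes other than mitochondrial and ribosomal protein genes, 5 with no count filter, 1 at a filter of 5 CPM, 6 with limma-voom and 1 on either log2 TPM scale. All genes that rose numbered 4436 of 19426, 3618 of 37196, 2618 of 10917, 5175 of 19426, and 2157 and 2134 of 16539 in that order. Against whole cells, 3 members rose in pseudopodia at 5 CPM, 10 with limma-voom and 2 on either log2 TPM scale. There 3711 of 10917, 7093 of 19426, and 3047 and 3017 of 16539 genes rose. In cell bodies against whole cells, limma-voom gave 16 risen and 14 fallen members, and a fit of the 6 libraries compared gave 13 and 13. Of all genes, 5722 of 19426 rose and 6245 fell with limma-voom, and 5270 of 18842 rose and 5464 fell in the fit of 6 libraries. The causes were not tested.

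TIMP1 in pseudopodia against whole cells was -0.0142 at 5 CPM (edgeR adjusted p = 0.923), -0.358 and -0.3582 on log2(TPM + 1) and log2(TPM + 0.1) (limma adjusted p = 0.0193 and 0.0198), and -0.0334 to 0.2186 when 1 library was left out, the lowest without pseudopodia replicate 3 (adjusted p = 0.81) and the highest without pseudopodia replicate 2 (adjusted p = 0.212), against 0.12 with all libraries. With TMM factors from genes other than mitochondrial and ribosomal protein genes, the median of all genes was 0.0675 in pseudopodia against cell bodies. The replicate number as a block gave 26 fallen and 2 risen members against cell bodies, 27 and 6 against whole cells, and 6 fallen and 8 risen in cell bodies against whole cells, and did not call ADAM17 (adjusted p = 0.052) and ADAM12 (adjusted p = 0.0621) against cell bodies. Of 19426 genes, 3653 fell and 3267 rose, 6363 fell and 5131 rose, and 3747 fell and 3051 rose in the same order.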

Other observations

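Of the 19 tested growth factor precursors and surface substrates of these proteases, 14 fell and none rose in pseudopodia against cell bodies, where 19.9% and 18.6% of all genes did. In pseudopodia against whole cells, 10 fell and 6 rose (33.1% and 27.9% of all genes), and in cell bodies against whole cells 1 fell and 10 rose (20.5% and 18.1% of all genes). A pair of them, chosen after their values were seen, lay far above whole cells in both fractions. HBEGF, a ligand of the EGF receptor that ADAM proteases release, had 39.7, 39.0 and 43.9 TPM in pseudopodia, 43.4, 43.2 and 44.6 TPM in cell bodies and 1.87, 2.31 and 1.84 TPM in whole cells. Pseudopodia and cell bodies overlapped, and the log2 fold change against whole cells was 4.81 ± 0.17 in pseudopodia (edgeR adjusted p = 1.2e-08) and 4.62 ± 0.16 in cell bodies (adjusted p = 1.04e-07). NOTCH1, a receptor cut by ADAM10, had 60.8, 55.3 and 69.0 TPM in pseudopodia, 49.5, 78.2 and 66.2 TPM in cell bodies and 10.4, 9.20 and 9.43 TPM in whole cells.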
